A study of Mus musculus with 16 samples.

Results

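The 8 polyamine genes Odc1, Amd1, Azin1, Oaz1, Oaz2, Sat1, Srm and Sms were followed in mouse embryonic stem (ES) cells that carry 2, 1 or no working copies of Nat1. The genes were taken by symbol from a table of 21977 genes; all 8 were found, each in 1 row, and all 8 passed the filter on low values in both assays. Eif4g2 is the present symbol for Nat1, which encodes DAP5, a protein related to the initiation scaffold eIF4G that does not bind the cap-binding protein eIF4E. Ribosome-protected fragments (RPFs, the stretches of mRNA covered by ribosomes) and total RNA were sequenced from each of 8 cultures, giving 16 libraries.

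All cultures were of the RF8 ES cell line, kept in ES medium with LIF on gelatin. WT stands for WTex1 and WTex2, replicate cultures of the untargeted line. The Nat1+/- clones were A7, B4 and C1, and the Nat1-/- clones were B12, B2 and C3, in the order of replicates 1, 2 and 3. WT replicates are cultures of a single line, whereas the targeted replicates are named as separate clones, so p-values against WT include no spread between WT clones. How the alleles were disrupted is not given in the labels.

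Polyamines (putrescine, spermidine and spermine) are small positively charged molecules that bind nucleic acids and are needed for growth, and dividing cells hold them within narrow bounds. Odc1, ornithine decarboxylase, makes putrescine; Amd1, S-adenosylmethionine decarboxylase, supplies the aminopropyl donor with which Srm makes spermidine and Sms makes spermine. Much of the control acts on translation: an upstream reading frame represses Amd1 and Azin1 when polyamines are plentiful, and the antizyme mRNAs Oaz1 and Oaz2 need a ribosomal frameshift that polyamines promote. Antizyme binds ODC and sends it to the proteasome, the Azin1 protein (antizyme inhibitor) binds antizyme in its place, and Sat1 acetylates spermidine and spermine for export or breakdown. Gene-level reads do not separate upstream from main frames or one antizyme frame from the other, so the values below describe each gene's footprints as a whole.

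RPF libraries held 17.5 to 23.8 and total RNA libraries 13.2 to 42.6 megareads (mega as in megabase), the 3 deep total RNA libraries being WTex1, WTex2 and B12. Eif4g2 RPFs in Nat1-/- were 12.4% of the Nat1+/- mean and 6.61% of the WT mean. All 8 stem cell markers (Pou5f1, Nanog and others) were above 10 normalised reads in every library. Their summed RPF level was 89370 to 105890 in WT, 109900 to 130788 in Nat1+/- and 180408 to 201388 in Nat1-/-, and 5 of 8 were called higher in Nat1-/- against each of the other genotypes (limma). Over all 13110 genes tested, 36.1% were called against Nat1+/- (2303 genes higher) and 34.8% against WT (2167 higher). The summed RPF level of 10 fibroblast markers was 9784 to 16664 in WT, 623 to 2397 in Nat1+/- and 247 to 301 in Nat1-/-. Of 8 tested, 6 were called lower in Nat1-/- against Nat1+/- and 7 against WT (limma), beside 18.6% and 18.3% of all genes. Dcn was at 0 in all 3 Nat1-/- RPF libraries, and Lum was at or near 0 in every culture (3.11 at most). Thy1 did not follow the sum, with 121 and 162 in WT, 219 to 328 in Nat1+/- and 46.2 to 125 in Nat1-/-. In bulk cultures fewer cells of a type and less RNA per cell cannot be told apart. The part of either marker list in the comparisons was not tested.

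Sms, spermine synthase, was the only member called lower in Nat1-/- against both other genotypes in both assays. Odc1 had the lowest ratio of RPF to total RNA in the Nat1-/- cultures, with no overlap with the other 5. The 250 bases before their annotated start sites are shown for these members, from RefSeq on GRCm38.p6. The Odc1 stretch is chr12:17544623-17544872 on the plus strand. The Sms stretch is chrX:157492288-157492537 on the minus strand and belongs to the more distal of its 2 annotated starts. Capitals mark GGGCGG or its reverse CCGCCC (the GC box) in Odc1, and CACGTG (the E-box that MYC and MAX proteins can bind) in Sms.
Odc1: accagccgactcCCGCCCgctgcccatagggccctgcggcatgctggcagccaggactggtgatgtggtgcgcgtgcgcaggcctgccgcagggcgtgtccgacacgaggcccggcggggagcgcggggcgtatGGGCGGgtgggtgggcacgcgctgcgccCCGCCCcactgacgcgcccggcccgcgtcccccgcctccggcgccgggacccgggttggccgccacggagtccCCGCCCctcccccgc
Sms: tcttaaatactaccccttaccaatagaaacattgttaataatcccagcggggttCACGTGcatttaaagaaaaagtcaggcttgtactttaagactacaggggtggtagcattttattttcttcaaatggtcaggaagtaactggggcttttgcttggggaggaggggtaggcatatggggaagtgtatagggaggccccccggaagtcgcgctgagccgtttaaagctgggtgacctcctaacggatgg
Both strands were searched in the 6 members with an entry, for the E-box, the GC box and the TATA box (TATAAA). The Odc1 stretch held 4 GC boxes, 1 as GGGCGG and 3 as CCGCCC, and is 80% G or C. The Sms stretch held 1 E-box 196 bases before the start, while the stretch before the other Sms start held 4 CCGCCC. Of the members not shown, Amd1 held 1 GC box, Oaz2 held 3, Sat1 held 2 and Oaz1 held 0. The E-box before the distal Sms start was the only 1 found, so Odc1 held 0, and TATAAA was found in no stretch. Of 32851 stretches of this length in the same collection, 6.02% held CACGTG and 32.7% held GGGCGG in either orientation. A match is a description of letters only.

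Odc1 had 4444 and 4991 normalised RPF reads for WTex1 and WTex2, 3392, 2757 and 2991 for the Nat1+/- clones A7, B4 and C1, and 3777, 2968 and 1823 for the Nat1-/- clones B12, B2 and C3. WT stood above every targeted culture, and the Nat1-/- clones spread over 2.07-fold around the Nat1+/- ones. Total RNA of Odc1 was 18914 and 17407 for WT, 11237, 11128 and 11964 for the clones A7, B4 and C1, and 21410, 15241 and 9443 for the clones B12, B2 and C3. Nat1-/- therefore ranged from below all Nat1+/- cultures to above WT in RNA. Odc1 RPFs fell by 0.78 ± 0.26 (SE) on the log2 scale in Nat1-/- against WT (limma, adjusted p = 0.0407). Against Nat1+/- the difference was -0.15 ± 0.23 (adjusted p = 0.636). The call against WT was lost without WTex1, WTex2, A7, B4, C1 or B2 (limma, adjusted p = 0.052 to 0.186 when the culture named was left out).

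The ratio of RPF to total RNA for Odc1 was 0.235 and 0.287 for WT, 0.302, 0.248 and 0.250 for the clones A7, B4 and C1, and 0.176, 0.195 and 0.193 for the clones B12, B2 and C3. All 3 Nat1-/- ratios lay below the other 5, and they differed by 1.10-fold among themselves although the RPF and RNA levels behind them differed by 2.07-fold and 2.27-fold. Nat1-/- held 70.6% of the Nat1+/- mean ratio. Translational efficiency (TE) was tested as the difference between the RPF and the total RNA fold change. In the fit that treats the 16 libraries as separate, the Odc1 TE difference against Nat1+/- was -0.50 ± 0.37 (limma, adjusted p = 0.748). The RPF and RNA library of a culture are paired, and with a term for culture the same difference fell by 0.50 ± 0.11 (limma, adjusted p = 0.0139). This call was lost without A7 (-0.41, adjusted p = 0.0739) and held when each other culture was left out (limma, adjusted p = 0.0103 to 0.0421). Against WT the paired difference was -0.47 ± 0.12 (limma, adjusted p = 0.123).

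**Figure D1:**
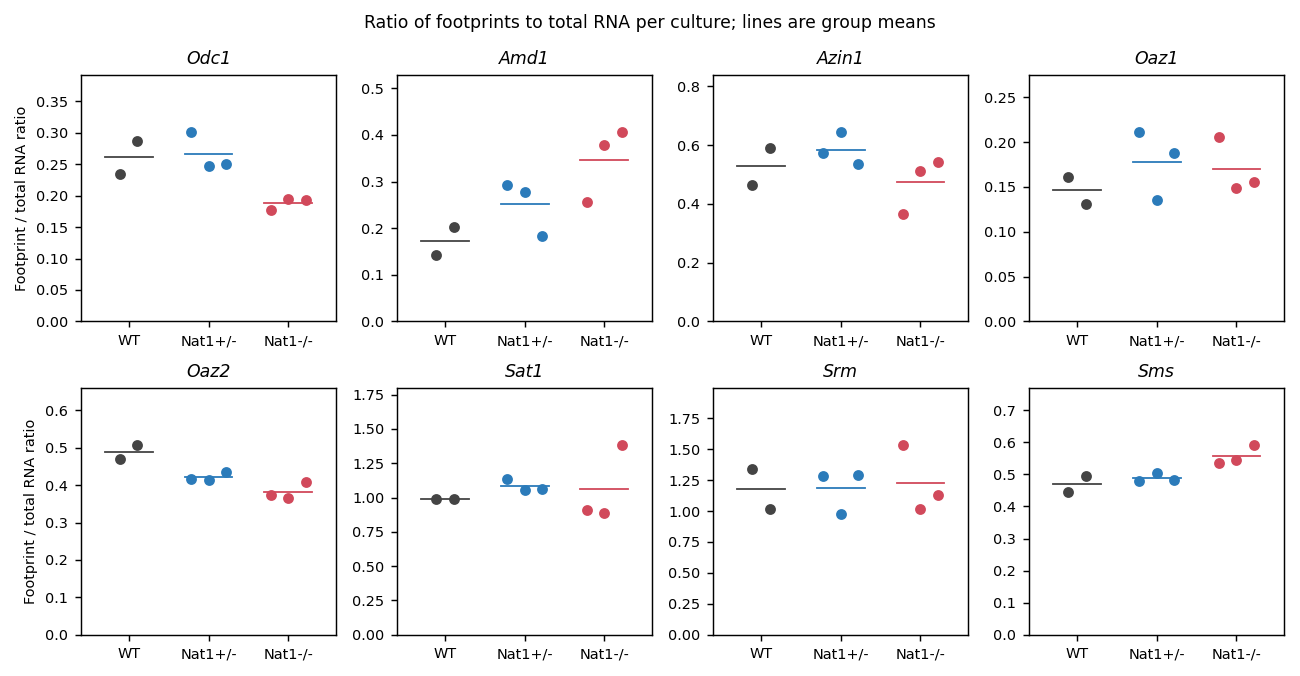
Ratio of normalised RPF (footprint) to total RNA reads of the 8 polyamine genes on linear axes from 0, each with its own scale, 1 point per culture and the genotype mean as a line. The 3 Nat1-/- ratios of Odc1 (0.176 to 0.195) lie below those of all other cultures, while those of Sms (0.535 to 0.592) lie above.

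Amd1 had 247 and 243 RPF reads for WT, 252, 248 and 207 for the clones A7, B4 and C1, and 358, 299 and 203 for the clones B12, B2 and C3. The genotypes overlapped, and B12 and B2 stood highest of the 8. Its total RNA was 1721 and 1203 for WT, 857, 894 and 1132 for the clones A7, B4 and C1, and 1396, 793 and 498 for the clones B12, B2 and C3. The 3 highest RNA values came from the 3 deep total RNA libraries, and the part of depth was not tested. No Amd1 difference was called: the RPF difference of Nat1-/- from WT was 0.19 ± 0.24 (limma, adjusted p = 0.584) and the RNA difference -0.81 ± 0.35 (adjusted p = 0.0989). Without B12 the latter fell by 1.19 (limma, adjusted p = 0.00439).

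The Amd1 ratio was 0.144 and 0.202 for WT, 0.293, 0.278 and 0.183 for the clones A7, B4 and C1, and 0.257, 0.378 and 0.407 for the clones B12, B2 and C3. It spanned 2.84-fold, the widest range of the 8 members, and all 3 Nat1-/- ratios exceeded both WT ones. The TE difference of Nat1-/- from WT was 1.00 ± 0.47 (limma, adjusted p = 1) and, with the culture term, 1.00 ± 0.25 (adjusted p = 0.0928). Without B12, the culture-term difference was 1.20 and was called higher (limma, adjusted p = 0.0198). Amd1 shares sequence with its retrocopy Amd2 and with 7 listed pseudogenes, and how reads of several origins were counted is not given, so its level is uncertain. Amd2 itself held a median of 0.913 RPF and 24.0 total RNA reads over the 8 cultures.

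Srm, spermidine synthase, had 5315 and 4221 RPF reads for WT, 3724, 2637 and 3737 for the clones A7, B4 and C1, and 6076, 4014 and 2716 for the clones B12, B2 and C3. Both WT cultures were above the 3 Nat1+/- ones, and Nat1-/- covered nearly the whole range. Its total RNA was 3964 and 4168 for WT, 2900, 2696 and 2899 for the clones A7, B4 and C1, and 3959, 3943 and 2397 for the clones B12, B2 and C3. No Srm difference was called (RPF against Nat1+/- 0.28 ± 0.27, limma, adjusted p = 0.429). Without C3 its RNA rose by 0.48 against Nat1+/- (limma, adjusted p = 0.00593). Its ratio, 0.978 to 1.53, overlapped between all genotypes.

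Sms, which adds the last aminopropyl group to make spermine, had 1443 and 1324 RPF reads for WT, 1034, 1183 and 1586 for the clones A7, B4 and C1, and 595, 519 and 518 for the clones B12, B2 and C3. Total RNA of Sms was 3239 and 2684 for WT, 2154, 2346 and 3292 for the clones A7, B4 and C1, and 1111, 950 and 875 for the clones B12, B2 and C3. In both assays the 3 Nat1-/- clones lay close together, 1.15-fold apart in RPF, and below all 5 other cultures. RPFs fell by 1.20 ± 0.17 against Nat1+/- (limma, adjusted p = 0.000836) and by 1.35 ± 0.19 against WT (adjusted p = 0.000719). Total RNA fell by 1.39 ± 0.18 against Nat1+/- (limma, adjusted p = 0.000365) and by 1.60 ± 0.20 against WT (adjusted p = 0.000266). These comparisons share the Nat1-/- cultures. The 4 calls held under every alternative tried, including each culture left out.

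The Sms ratio was 0.445 and 0.493 for WT, 0.480, 0.504 and 0.482 for the clones A7, B4 and C1, and 0.535, 0.546 and 0.592 for the clones B12, B2 and C3. The Nat1-/- ratios were the highest 3, with no overlap, and the TE difference was not called (0.19 ± 0.09 against Nat1+/- with the culture term, limma, adjusted p = 0.174). With Sms low and Srm spread, the RPF level of Srm over that of Sms was 3.68 and 3.19 for WT, 3.60, 2.23 and 2.36 for the clones A7, B4 and C1, and 10.2, 7.74 and 5.24 for the clones B12, B2 and C3. This quotient, not corrected for gene length, did not overlap between Nat1-/- and the other cultures. Sms has 1 listed pseudogene.

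**Figure D2:**
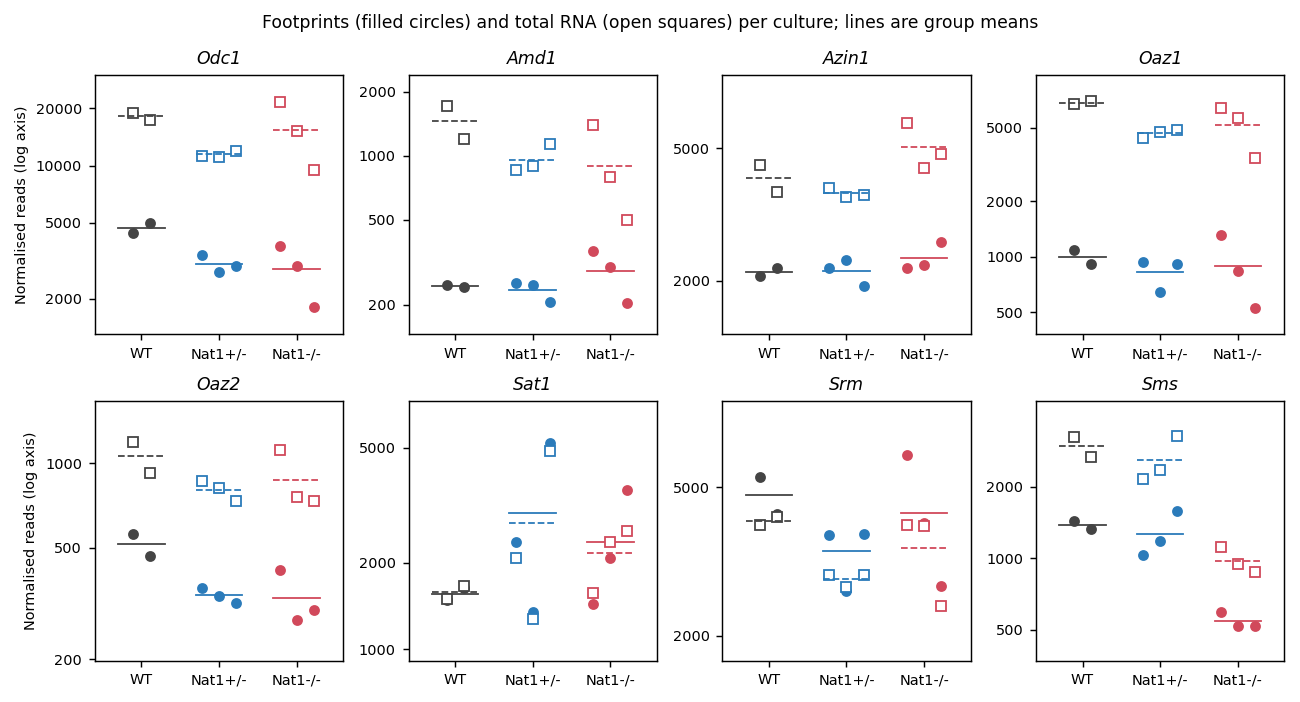
Normalised RPF (filled circles) and total RNA reads (open squares) of the 8 polyamine genes on log axes, each with its own scale, 1 symbol per culture and the genotype means as solid (RPF) and dashed (RNA) lines. Sms is lowest in Nat1-/- in both assays (RPF 518 to 595 against 1034 or more elsewhere), whereas Sat1 spreads by clone within both targeted genotypes.

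Sms and Sat1 both lie on the X chromosome, with Acot9 and Prdx4 as the tested genes between them in the RefSeq order. Prdx4, a peroxiredoxin of the endoplasmic reticulum, was also lower in RPF against Nat1+/- (-0.91 ± 0.32, limma, adjusted p = 0.0482) and against WT (-1.04, adjusted p = 0.0464). Acot9, a mitochondrial thioesterase, was lower in RPF against Nat1+/- (-0.79 ± 0.26, limma, adjusted p = 0.0362). Of all genes, 36.1% were called in RPF against Nat1+/-. On the other side of Sms, Mbtps2 RPFs were lower against Nat1+/- (-0.83 ± 0.26, limma, adjusted p = 0.0321), Klhl34 RPFs higher (2.73 ± 0.64, adjusted p = 0.0097) and Cnksr2 RPFs lower (-2.96 ± 0.75, adjusted p = 0.0131). Not all of these differences were seen elsewhere. Against WT the RPF differences of Mbtps2 (0.06), Acot9 (-0.46) and Klhl34 (1.68) were not called (limma, adjusted p = 0.892, 0.234 and 0.0962), and neither were the RNA differences of Mbtps2 (-0.32) and Acot9 (-0.78) against Nat1+/- (limma, adjusted p = 0.295 and 0.0539). Leaving out 1 culture ended the Prdx4 call for WTex1, WTex2, B12, B2 or C3, the Acot9 call for WTex1, WTex2, C1, B12 or B2, and the Mbtps2 call for A7, C1, B12 or B2. The Acot9 and Mbtps2 differences without C1 were -0.44 and -0.55 (limma, adjusted p = 0.0583 and 0.102), and the values without B12 were close in p (Prdx4 -0.91, Acot9 -0.70 and Mbtps2 -0.68, limma, adjusted p = 0.0791, 0.0799 and 0.0801). The Klhl34 call was lost without B2 (2.43, limma, adjusted p = 0.0533), and the Cnksr2 call held under every alternative tried. Sat1 itself was not called. Beyond Sat1, RPFs of Ubqln2, Kctd12b and Spin2c were not called against Nat1+/- (limma, adjusted p = 0.396, 0.269 and 0.158). Kctd12b and Spin2c were called lower in RPF against WT (limma, adjusted p = 0.0149 and 0.0265), and in RNA against both genotypes. A regional effect was not tested.

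Azin1, which frees ODC from antizyme, had the narrowest RPF range of the members. Its RPFs were 2066 and 2187 for WT, 2179, 2308 and 1932 for the clones A7, B4 and C1, and 2178, 2237 and 2606 for the clones B12, B2 and C3, a 1.35-fold range in which the genotypes overlapped. Total RNA of Azin1 was 4441 and 3697 for WT, 3801, 3570 and 3614 for the clones A7, B4 and C1, and 5941, 4363 and 4801 for the clones B12, B2 and C3. All Nat1-/- clones were above all Nat1+/- ones. RNA rose by 0.45 ± 0.14 against Nat1+/- (limma, adjusted p = 0.0286), while the RPF difference was 0.13 ± 0.13 (adjusted p = 0.459). The RNA call was lost without A7, B4, C1 or B12 (0.32 to 0.47, limma, adjusted p = 0.0568 to 0.0785) and in the cultures with shallow RNA libraries alone (0.32, adjusted p = 0.0766). The ratio was 0.367, 0.513 and 0.543 in B12, B2 and C3 against 0.535 to 0.646 in Nat1+/-, and its paired difference was -0.32 ± 0.15 (limma, adjusted p = 0.172).

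Oaz1, the most widely expressed antizyme, had 1092 and 914 RPF reads for WT, 935, 642 and 918 for the clones A7, B4 and C1, and 1316, 842 and 532 for the clones B12, B2 and C3. B12 was the highest and C3 the lowest of all 8 cultures. Its total RNA was 6771 and 6959 for WT, 4415, 4738 and 4895 for the clones A7, B4 and C1, and 6412, 5652 and 3419 for the clones B12, B2 and C3. Both WT cultures stood above all 6 targeted ones in RNA, with a difference of -0.46 ± 0.23 for Nat1-/- (limma, adjusted p = 0.139). Without B12 it fell by 0.64 (limma, adjusted p = 0.0304). Against Nat1+/- the RNA difference was 0.09 ± 0.20 (limma, adjusted p = 0.746) and, without C3, a rise of 0.36 (adjusted p = 0.0275). The Oaz1 ratio ran from 0.131 to 0.212 and overlapped between genotypes. Its paired TE difference from Nat1+/- was -0.06, with a 95% interval from -0.44 to 0.32.

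Oaz2, a second antizyme, had 560 and 469 RPF reads for WT, 359, 337 and 319 for the clones A7, B4 and C1, and 418, 277 and 301 for the clones B12, B2 and C3. WT was above every targeted culture. Oaz2 RPFs fell by 0.65 ± 0.21 in Nat1-/- against WT (limma, adjusted p = 0.0349). The difference of Nat1+/- from WT was -0.60 ± 0.21 (limma, adjusted p = 0.0861), so both targeted genotypes stood at a similar distance from the shared WT cultures. The call was lost without WTex1, WTex2, A7, C1, B2 or C3 (limma, adjusted p = 0.0502 to 0.241). Total RNA of Oaz2 was 1191 and 923 for WT, 862, 818 and 735 for the clones A7, B4 and C1, and 1118, 761 and 735 for the clones B12, B2 and C3, with no call. The ratio was 0.470 and 0.508 for WT, 0.416, 0.412 and 0.434 for the clones A7, B4 and C1, and 0.374, 0.364 and 0.409 for the clones B12, B2 and C3. The 3 genotypes followed each other downward without overlap, Nat1-/- holding 90.8% of the Nat1+/- mean, and the TE differences were not called (paired, against WT -0.35 ± 0.12, limma, adjusted p = 0.221). Oaz1 and Oaz2 have 1 listed pseudogene each.

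The quotient of Oaz1 over Azin1, antizyme over its inhibitor, overlapped between all genotypes in RPF. There it was 0.529 and 0.418 for WT, 0.429, 0.278 and 0.475 for the clones A7, B4 and C1, and 0.604, 0.376 and 0.204 for the clones B12, B2 and C3. B12 and C3, both Nat1-/-, held the highest and the lowest value. In total RNA the quotient was 1.52 and 1.88 for WT, 1.16, 1.33 and 1.35 for the clones A7, B4 and C1, and 1.08, 1.30 and 0.712 for the clones B12, B2 and C3. In RNA both WT cultures thus stood above all 6 targeted ones, and the targeted genotypes overlapped. Neither quotient was corrected for gene length.

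Sat1, the acetyltransferase that starts polyamine breakdown, had 1485 and 1639 RPF reads for WT, 2350, 1351 and 5201 for the clones A7, B4 and C1, and 1432, 2082 and 3567 for the clones B12, B2 and C3. C1 and C3 were the highest, and B4 and B12 the lowest, so both targeted genotypes held clones at either end of the range. Total RNA of Sat1 was again highest in C1 and C3 and lowest in B4, with 1499 and 1654 for WT, 2074, 1278 and 4891 for the clones A7, B4 and C1, and 1569, 2349 and 2576 for the clones B12, B2 and C3. The RPF difference of Nat1-/- from Nat1+/- was -0.21 ± 0.45, with a 95% interval from -1.21 to 0.79 (limma, adjusted p = 0.737). The ratio was 0.991 in both WT cultures, 1.06 to 1.13 in Nat1+/- and 0.886 to 1.38 in Nat1-/-. Sat1 thus had 3.85-fold RPF and 3.83-fold RNA ranges beside a 1.56-fold range of the ratio.

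Counted over the 8 members, RPFs of 1 (Sms) were called lower in Nat1-/- against Nat1+/-, where 18.6% of 13110 genes were called lower and 36.1% in either direction. Against WT, RPFs of 3 (Odc1, Oaz2 and Sms) were called lower, beside 18.3% of all genes lower and 34.8% in either direction. For total RNA, 1 member (Azin1) was higher and 1 (Sms) lower against Nat1+/-, beside 19.8% and 20.2% of 13813 genes, 40% in all. Against WT only Sms was called lower in RNA, beside 18.9% lower and 35% in either direction. The median member log2 difference between Nat1-/- and Nat1+/- was -0.01 in RPF and 0.09 in RNA, beside 0.02 and 0.01 over all genes tested. Against WT it was -0.24 and -0.31, beside 0.03 and 0.02. Groups that do not overlap were found in RPF for 1 member against Nat1+/- (48.1% of all genes) and for 3 against WT (59.6%), and in RNA for 2 (50.2%) and 3 (60.1%). These shares move with single cultures: against WT the calls over all genes dropped from 34.8% to 14.7% without WTex1 and 19.7% without WTex2 in RPF, and from 35% to 17.5% and 19.4% in RNA. Against Nat1+/- they dropped to 21.4% in RPF and 25.9% in RNA without B2. A share of 1, 3, 2 and 1 called of 8 members is not above, or only near, the either-direction share of all genes in each of these comparisons. The 3 RPF calls against WT were all lower and stood above the 18.3% of genes called lower. That count was 1 without WTex1 or without WTex2.

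Between Nat1+/- and WT, 0 members were called in either assay by limma, beside 10.5% of genes in RPF and 10% in RNA. Without WTex1 these shares were 0% in both assays. At an unadjusted p under 0.05 there were 2 in RPF (Odc1 and Oaz2) and 3 in RNA (Odc1, Oaz1 and Srm), while edgeR called 0 in both and DESeq2 called 1 in RPF (Oaz2) and 0 in RNA. In RNA the 2 WT cultures lay above all 3 Nat1+/- clones for 5 of 8 members (Odc1, Amd1, Oaz1, Oaz2 and Srm), where 54.6% of all genes had groups that do not overlap. In RPF the groups did not overlap for 3 members (Odc1, Oaz2 and Srm), beside 55.3% of all genes. With only these genotypes in the fit, RPFs of Odc1 fell by 0.63 and of Oaz2 by 0.60, and RNA of Odc1 by 0.67, of Oaz1 by 0.55 and of Srm by 0.52, each past the threshold (limma, adjusted p = 0.0103 to 0.0373). That fit called 20.1% of all genes in RPF and 20% in RNA, so 2 and 3 of 8 members stood near or above the background. The depth of the total RNA libraries cannot be told apart from genotype here, since both WT libraries were deep and all Nat1+/- ones shallow.

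For TE the separate-library fit called 0 members in each of the 3 comparisons by limma and edgeR, and 0 at an unadjusted p under 0.05. DESeq2 also called 0, but for Nat1+/- against WT it gave an adjusted p for 2 of the 8 members only (Odc1 and Srm). The limma fit called 0.58%, 0.00773% and 0% of 12933 genes for Nat1-/- against Nat1+/-, Nat1-/- against WT and Nat1+/- against WT. DESeq2 called 3.05%, 0.286% and 0.139% of them in the same order. The ratios did not overlap for 3 members between Nat1-/- and Nat1+/-, 4 between Nat1-/- and WT and 2 between Nat1+/- and WT, beside 36.9%, 27.2% and 43.8% of all genes. With the culture term 15.8% of genes were called for Nat1-/- against Nat1+/- (9.26% lower), and 1 of 8 members, Odc1. The 2037 genes behind this share became 757 without A7, 877 without C1, 945 without B2, 1088 without B4 and 2951 without C3, so the background also rests on single cultures. For Nat1-/- against WT it called 1.22% of genes (158, and 23 to 256 with 1 culture left out) and 0 members, with 4 members (Odc1, Amd1, Oaz2 and Sms) at an unadjusted p under 0.05. For Nat1+/- against WT it called 1.13% of genes (146, and 0 to 1049 with 1 culture left out) and 0 members, with 0 at an unadjusted p under 0.05.

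**Figure D3:**
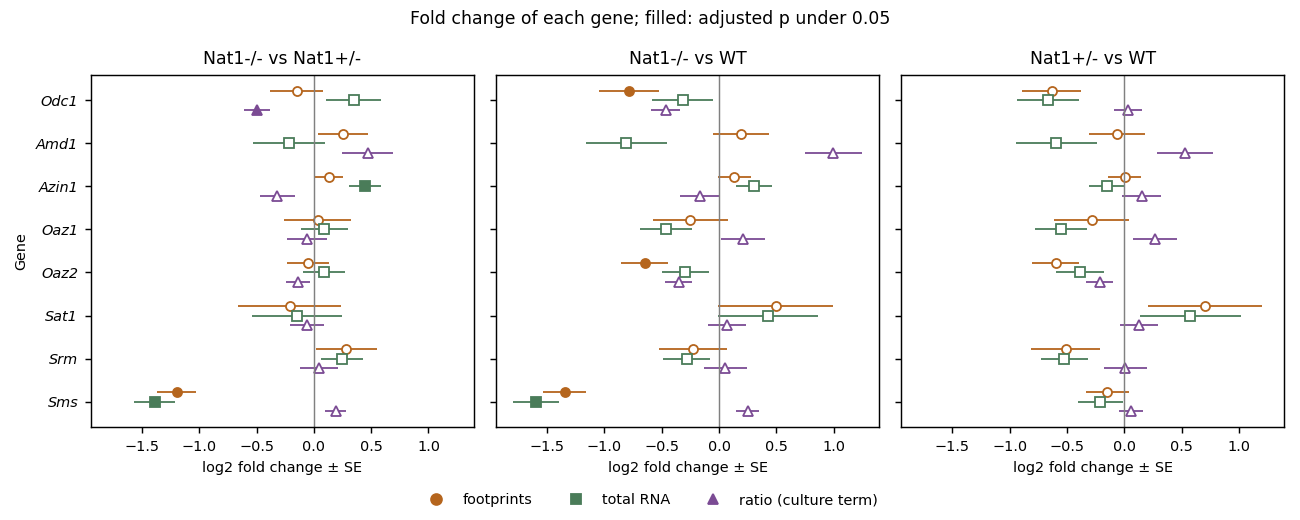
Log2 fold change with its SE (bars) of the 8 polyamine genes in RPF (circles), total RNA (squares) and the RPF to RNA ratio with the culture term (triangles), for the 3 comparisons, which share cultures; filled symbols passed an adjusted p below 0.05. Sms is filled in RPF and RNA in both comparisons of Nat1-/-, Odc1 in the ratio against Nat1+/- and in RPF against WT, and no symbol is filled for Nat1+/- against WT.

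The 3 Nat1-/- clones were not alike, in these genes or more widely. Over genes with enough reads, B12 against C3 gave a chi-square per degree of freedom of 127.7 (RPF) and 107.4 (RNA). The other Nat1-/- pairs gave 47.5 and 49.7 in RPF, and 39.6 and 30.5 in RNA. The share of all genes with the orders below was not counted. B12 had the highest total RNA of the 3 for 7 of 8 members and the highest RPF for 6 of 8, while C3 had the lowest RNA for 6 and the lowest RPF for 5. Sat1 ran the other way in both assays, lowest in B12. B12 was also the only deep total RNA library among the 3, and the part of depth was not tested. Without C3, RNA of 5 members was called against Nat1+/-: Odc1 (0.66, limma, adjusted p = 0.00757), Srm, Oaz1 and Azin1 higher and Sms lower. That fit called 45.1% of all genes. Without B12, RNA of Odc1 (-0.60, limma, adjusted p = 0.0383), Amd1, Oaz1 and Sms was called lower against WT, where 20% of all genes were called lower and 37.5% in either direction.

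In each culture, ratios can be placed among the 10790 genes with a mean of at least 50 normalised reads in RPF and in total RNA. Oaz1 stood at the 0.741 to 4.66 percentile of that order over the 8 cultures (median 1.77), Odc1 at 2.93 to 6.58 (median 4.03) and Amd1 at 1.31 to 16.7 (median 5.76). Oaz1 and Odc1 thus had few footprints per RNA in all genotypes, and Amd1 in WT and Nat1+/-. Oaz2 (median 16.1), Sms (22.4) and Azin1 (27.1) came next, their ranges overlapping. Sat1 (median 66.9) and Srm (75.6) stood in the upper part. RPFs come mainly from coding sequence and total RNA from the whole transcript, so a long untranslated region lowers this ratio by itself, and lengths were not used here.

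**Figure D4:**
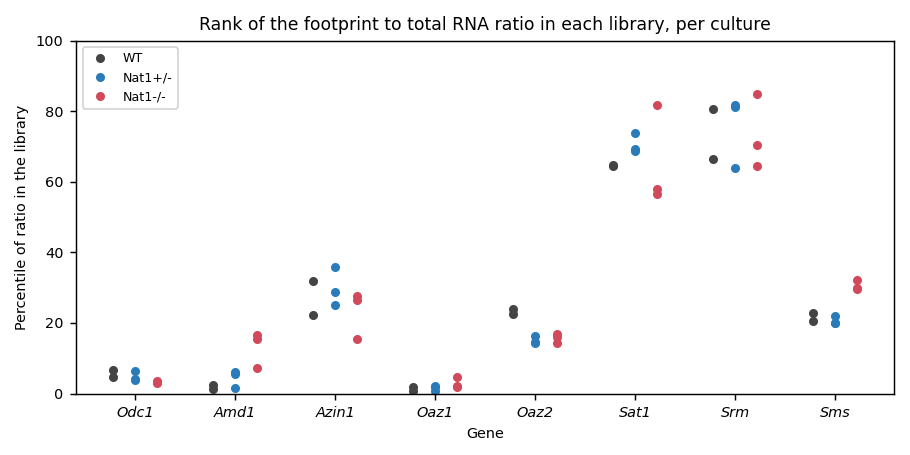
Percentile of each gene's RPF to total RNA ratio among 10790 genes of the same culture (linear axis), 1 point per culture coloured by genotype. Oaz1 and Odc1 lie between 0.741 and 6.58 in all 8 cultures, Sat1 and Srm between 56.4 and 84.8.

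The genes whose RPF pattern over the 8 cultures was most like each member's are given as a description, by Pearson's r of log2 values among 10955 genes. For Odc1 these were Arhgap35 (r = 0.976), Nip7 (0.975) and Hist1h4b (0.967). For Sms they were Abhd5, Rftn1 and Psmb9 (0.988 to 0.989), for Srm E130309D02Rik, Pgp and Naca (0.978 to 0.985), and for Oaz1 Naa10, Mrpl34 and Ranbp1 (0.965 to 0.973). For Oaz2 they were Dcps, Pemt and Utp23 (0.963 to 0.982), and for Amd1 Nudt2, Rpl31 and Ywhah (0.943 to 0.958). For Sat1 they were Trim11, Ext2 and Gtpbp1 (0.915 to 0.946), and for Azin1 Ermard, Zfp583 and AI987944 (0.916 to 0.938). Each r is the highest of many over only 8 cultures, and how high it runs for other genes was not computed. All these points share their libraries and normalisation.

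Around the members, 17 other genes of polyamine metabolism were listed, of which 11 were tested in RPF. Against Nat1+/-, RPFs of 2 rose and of 5 fell in Nat1-/-, beside 36.1% of all genes called (18.6% lower), with a median log2 difference of -0.51 beside 0.02 over all genes. Called genes included enzymes of the methionine salvage pathway, which recycles the methylthioadenosine left over by Srm and Sms. Mri1, the isomerase of that pathway, had RPFs of 1260 and 949 for WT, 1448, 998 and 1312 for the clones A7, B4 and C1, and 801, 616 and 576 for the clones B12, B2 and C3, with all Nat1-/- values lowest. It fell by 0.91 ± 0.19 (limma, adjusted p = 0.00606) and its RNA by 0.74 ± 0.16 (adjusted p = 0.00497). Adi1, the dioxygenase near the end of the pathway, had 2480 and 2311 for WT, 2647, 2541 and 2353 for the clones A7, B4 and C1, and 3873, 4106 and 4402 for the clones B12, B2 and C3, all highest in Nat1-/-. It rose by 0.71 ± 0.12 (limma, adjusted p = 0.0019). The RPF calls of Mri1 and Adi1 held under all alternatives tried, and those of Mtap (-0.55), Enoph1 (-0.47), Apip (0.49), Smox (-0.66, spermine oxidase) and Azin2 (-1.01, a second antizyme inhibitor) were each lost in 3 or more fits that left out 1 culture (limma). The count of called genes in this list was 2 to 6 over those fits. In RNA 40% of all genes were called, 20.2% lower. Of this list, 1 of 12 rose in RNA and 5 fell. The genes that fell included Mtap (-0.76 ± 0.16, limma, adjusted p = 0.00393) and Smox (-0.61 ± 0.15, adjusted p = 0.0106). Both were called in every fit that left out a culture. The others in RNA were Adi1 (0.57, limma, adjusted p = 0.0271), Enoph1 (-0.43, adjusted p = 0.0404) and Sat2 (-1.15, adjusted p = 0.016), and each was lost in 2 or more of those fits.

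Among 8 listed polyamine transport genes, 6 were tested in RPF, and 2 rose and 2 fell against Nat1+/-. Of all genes, 36.1% were called in RPF and 40% in RNA in this comparison. Slc7a1, the cationic amino acid transporter that brings in arginine and ornithine, had RPFs of 1176 and 1242 for WT, 1914, 1312 and 1896 for the clones A7, B4 and C1, and 2491, 2413 and 3056 for the clones B12, B2 and C3. It rose by 0.65 ± 0.17 in RPF (limma, adjusted p = 0.0162) and by 0.80 ± 0.13 in RNA (adjusted p = 0.00145), in all alternatives tried. Atp13a3, a P5-type ATPase linked to polyamine uptake, had 975 and 1041 for WT, 1400, 1586 and 1364 for the clones A7, B4 and C1, and 966, 746 and 821 for the clones B12, B2 and C3, below all other cultures. Its RPFs fell by 0.78 ± 0.14 (limma, adjusted p = 0.00277) while its RNA differed by -0.07 ± 0.15 (adjusted p = 0.76). With the culture term its TE fell by 0.72 ± 0.11 (limma, adjusted p = 0.00226), and this held when each culture was left out (adjusted p = 0.000953 to 0.018). In the separate-library fit the same TE difference was not called (limma, adjusted p = 0.146), and 0 of the 6 transport genes were. The other called genes were Atp13a2 (0.61, limma, adjusted p = 0.0324) and Slc12a8 (-1.83, adjusted p = 0.0164). Without A7 or B2 both missed the threshold, as did Atp13a2 without B4 or C3 (limma, adjusted p = 0.0553 to 0.104). In RNA, Atp13a2 (0.71, limma, adjusted p = 0.00914) rose and Slc12a8 (-1.43, adjusted p = 0.00472) fell in all alternatives tried, and Slc3a2 fell (-0.55, adjusted p = 0.0221) except in fits without A7, B12 or B2.

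Hypusine is made from spermidine on the translation factor eIF5A, by Dhps and then Dohh. Of the 4 listed genes, all tested, Dohh RPFs rose against Nat1+/- (0.76 ± 0.24, limma, adjusted p = 0.0324), and 3 were not called. Dohh RPFs were 2397 and 1890 for WT, 1401, 1033 and 1395 for the clones A7, B4 and C1, and 2977, 2155 and 1514 for the clones B12, B2 and C3. Nat1-/- thus overlapped WT for Dohh, and Nat1+/- was the lowest group. Over all genes 36.1% were called in RPF and 40% in RNA against Nat1+/-, and 34.8% and 35% against WT. The Dohh call was lost without A7, B4, C1, B12 or B2 (limma, adjusted p = 0.0539 to 0.113). Dohh RNA rose too (0.54, limma, adjusted p = 0.0276), a call lost without A7, B4, B12 or B2. Against WT, Dhps RNA fell by 0.95 ± 0.21 (limma, adjusted p = 0.00561), in all alternatives tried, and Eif5a RNA by 0.81 ± 0.26 (adjusted p = 0.0332), lost without WTex1, WTex2 or B2. Dhps RPFs fell by 1.00 ± 0.27 (limma, adjusted p = 0.0168), lost without WTex1 or B2.

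Other mRNAs known for upstream frames or a programmed frameshift numbered 11, of which 10 were tested. In RPF 4 rose and 2 fell against Nat1+/-, and in RNA 5 rose and 2 fell, beside 36.1% and 40% of all genes called. Ppp1r15a, the stress-induced phosphatase subunit, had RPFs of 299 and 216 for WT, 112, 106 and 120 for the clones A7, B4 and C1, and 578, 431 and 334 for the clones B12, B2 and C3, with no overlap between genotypes. It rose by 1.95 ± 0.23 against Nat1+/- (limma, adjusted p = 0.000327) and Atf4, the stress transcription factor, by 0.93 ± 0.18 (adjusted p = 0.00373). Their RNA rose as well (1.44 ± 0.17 and 0.93 ± 0.15, limma, adjusted p = 0.000261 and 0.00112). Atf4 RPFs were 5933 and 4189 for WT, 3682, 2836 and 3038 for the clones A7, B4 and C1, and 7077, 5740 and 5368 for the clones B12, B2 and C3. For Atf4, Nat1-/- thus overlapped WT, and Nat1+/- was the lowest group. Ppp1r15b, the constitutive counterpart of Ppp1r15a, and Atf5 also rose in RPF (1.12 and 0.97, limma, adjusted p = 0.00405 and 0.0157) and in RNA (1.09 and 1.21, adjusted p = 0.00291 and 0.000936), the Atf5 RPF call being lost without C1. Mdm2, the ubiquitin ligase of p53, had 2464 and 3126 RPF reads for WT, 3579, 4095 and 4099 for the clones A7, B4 and C1, and 2129, 2781 and 2167 for the clones B12, B2 and C3. The Nat1-/- values lay below Nat1+/- and overlapped WT. Its RPFs fell by 0.74 ± 0.15 (limma, adjusted p = 0.00528) and its RNA by 0.32 (adjusted p = 0.0422), the latter lost without any 1 of 7 cultures, all but C3. Cebpa, a transcription factor of myeloid, liver and fat cells, had few RPFs, 41.9 and 50.3 for WT, 17.3 to 39.9 in Nat1+/- and 4.56 to 7.56 in Nat1-/-. They fell by 1.89 ± 0.42 and its RNA by 1.86 (limma, adjusted p = 0.00776 and 0.00614). Peg10, whose second frame like that of the antizymes needs a frameshift, had RPFs of 8366 and 9481 for WT, 4863, 4855 and 4069 for the clones A7, B4 and C1, and 4235, 5598 and 4444 for the clones B12, B2 and C3, the targeted genotypes overlapping below WT. Its RNA was 15448 and 12772 for WT, 4012, 4382 and 4036 for the clones A7, B4 and C1, and 10440, 10970 and 6071 for the clones B12, B2 and C3. The ratio of 0.406 to 0.732 in Nat1-/- overlapped the 0.542 and 0.742 of WT, and Nat1+/- stood above both with 1.01 to 1.21. Peg10 RNA rose by 1.10 against Nat1+/- (limma, adjusted p = 0.00266). With the culture term its TE fell against Nat1+/- by 1.05 ± 0.19 (limma, adjusted p = 0.00541), and this held when each culture was left out (adjusted p = 0.000434 to 0.0363). It was not called in the separate-library fit (limma, adjusted p = 0.0988), where 0 of the 10 genes were, nor against WT with the culture term (-0.25, adjusted p = 0.693). The antizymes, by contrast in call only, had paired TE differences of -0.06 ± 0.17 (Oaz1) and -0.14 ± 0.10 (Oaz2); the difference between Peg10 and the antizymes was not tested.

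Odc1 and Srm are textbook targets of MYC, and 5 MYC network genes were listed and tested. In Nat1-/- against Nat1+/-, 40% of all genes were called in RNA, 36.1% in RPF and 15.8% in TE with the culture term. Myc RNA was 430 and 451 for WT, 86.5, 95.0 and 124 for the clones A7, B4 and C1, and 758, 529 and 155 for the clones B12, B2 and C3. Nat1+/- was lowest without overlap, and B12 was highest and C3 lowest within Nat1-/-. RNA of Odc1, Amd1, Oaz1, Oaz2, Srm, Sms and Eif4g2 had the same order of these clones, while that of Azin1 and Sat1 did not. Some of these orders were near ties, as for Srm (3959 in B12, 3943 in B2) and Oaz2 (761 in B2, 735 in C3). The share of all genes with this order was not counted, so the match in order carries no weight by itself. B12 was the only deep total RNA library of these clones, and a link of the members to MYC was not tested. Myc RNA rose by 1.97 ± 0.47 against Nat1+/- (limma, adjusted p = 0.0085). Mycl RNA fell by 1.00 ± 0.18 (limma, adjusted p = 0.00208) and Mycn RNA by 0.36 ± 0.12 (adjusted p = 0.0411), and Max (1.04 ± 0.15, adjusted p = 0.000802) and Mnt (0.81 ± 0.16, adjusted p = 0.00363) rose. The Mycn call was lost without any 1 of 7 cultures, all but C3 (limma, adjusted p = 0.0551 to 0.153), and the other 4 held in all alternatives tried. In RPF Mycl (-1.37) and Mycn (-0.67) fell and Max (0.67) and Myc (1.42) rose (limma, adjusted p = 0.000709, 0.0122, 0.00777 and 0.0196), the Myc call being lost without A7, B4 or B2 and the Mycn call without B2. With the culture term TE fell for Myc (-0.55) and Mnt (-0.70), and for Mdm2 of the list above (-0.42) (limma, adjusted p = 0.0293, 0.0406 and 0.0257), and each call was lost in 4 or more fits that left out 1 culture. Summed endoderm marker RPFs were 4040 to 5534 in WT, 5288 to 8073 in Nat1+/- and 776 to 1302 in Nat1-/-. Those of neuroectoderm markers were 8052 to 9130, 2568 to 4101 and 1122 to 1820. Up to 2 of 8 endoderm and 1 of 8 neuroectoderm genes were at 0. The markers did not all move together. Of 5 endoderm markers tested, RPFs of 1 were called higher and of 2 lower against Nat1+/- (limma). Of 7 neuroectoderm markers 1 was higher and 5 lower, beside 36.1% of all genes called (18.6% lower). Against WT, 2 endoderm markers were higher and 2 lower, beside 34.8% of all genes called. The part of these markers in the differences above was not tested.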

How the data were processed

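RPF and total RNA libraries of 8 cultures (16 libraries) were prepared with the TruSeq Ribo Profile kit according to the labels. The values the authors deposited are a normalised read signal: read counts per gene divided by 1 size factor per library. Per the submitters' processing notes, the tools were TopHat2 2.1.0, Bowtie2 2.2.8, HTSeq 0.6.1, cutadapt 1.9.1, bcl2fastq 2.17 and, without a version, DESeq2; the builds were mm10 and GRCm38.p4. The sources used here do not say how multi-mapping reads, strand, footprint length and untranslated regions were handled.

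Whole reads were recovered for 100% of values (tolerance 0.001), and 3 counts, the limit behind a 0, equal at most 4.90 normalised reads; this covers counting error only. Tests used limma 3.58.1 in R 4.3.3 on log2(value + 1) of genes with a mean of at least 10, with the 3 genotypes as group means and a trended variance. Fold changes are on that scale, which understates changes of low genes. RPF (13110 genes) and total RNA (13813 genes) were fitted apart, and TE (12933 genes) as the interaction over 16 libraries. A call is a Benjamini-Hochberg adjusted p below 0.05 over all genes tested.

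A culture's RPF and total RNA libraries come from the same cells. Their deviations from the genotype means correlated with r of 0.384 to 0.821, and 8 of 8 cultures matched their own partner best. The deviations of the 2 WT cultures mirror each other, so their equal r (0.456) counts as 1 match. Since the libraries are paired by culture, the fit with a culture term is the paired analysis of TE.

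The members, the gene lists and the tests were chosen with earlier results of these data known. All 8 members are named. Of the other lists, genes called in the comparison described could be named. Calls against WT are given for the hypusine genes, for neighbours of Sms and Sat1 and, as counts, for stem cell, fibroblast and endoderm markers. For the other lists they are not described. In RPF they numbered 4 of 11 (other polyamine metabolism), 3 of 6 (transport), 5 of 10 (other upstream-frame or frameshift mRNAs) and 2 of 5 (MYC factors), beside 34.8% of all genes. For likeness, the names are those of the 3 genes closest to each member among those with a mean RPF of at least 50. Promoter stretches and gene order are from RefSeq. Alternatives were other pseudocounts, filters and scalings, the recovered reads tested with DESeq2 1.42.0 or edgeR 4.0.16, a replicate-number block, only the 2 genotypes compared, only shallow total RNA libraries, and each culture left out. The fits without a culture term were run on simulated data in which every library was drawn independently. That run does not cover the fit with a culture term, and its outcome is not given here. Gene names repeated in the table numbered 2.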

Additional observations from a re-analysis of the deposited data

How the results depend on the processing

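Over 1482 alternative values of the members, 1364 kept their direction and side of the threshold, 21 lost and 28 gained a call, 69 moved without a call and 0 reversed. The other named genes gave 7798, of which 7020 kept both, 306 lost and 169 gained a call, 303 moved and 0 reversed. Of the counts of members called, that of RPF against WT in Nat1-/- (3) became 1 with a replicate-number block and 1 with only these genotypes fitted, and 1 to 3 when 1 culture was left out. RPF of Nat1+/- against WT (0) became 1 with DESeq2, 2 with only these genotypes and 0 to 1 with 1 culture left out. Total RNA of Nat1-/- against Nat1+/- (2) became 1 in the shallow libraries alone and 1 to 5 with 1 culture left out, and against WT (1) it became 1 to 4. Total RNA of Nat1+/- against WT (0) became 3 with only these genotypes and 0 to 3 with 1 culture left out. The paired culture term, as a replicate block, took TE of Nat1-/- against Nat1+/- from 0 to 1. Cultures with the same replicate number did not deviate together (r = -0.192 to -0.0168), so the number block is given as a setting only, and it changed no other count of members called by over 1.5 times. Over all genes, RPF of Nat1+/- against WT gave 1374 calls, 2519 with DESeq2, 162 with the number block and 2638 with only these genotypes, and 0 to 2635 with 1 culture left out. Total RNA of Nat1+/- against WT gave 1383, 2559, 190 and 2768, and 0 to 2840. TE of Nat1-/- against Nat1+/- gave 75, 128 with equal library sums, 394 with DESeq2, 131 with the number block, 21 with only these genotypes, 2037 with the culture term, 6 in the shallow libraries and 6 to 376 with 1 culture left out. TE of Nat1-/- against WT gave 1, 37 with DESeq2 and 158 with the culture term, and of Nat1+/- against WT 0, 18 and 146. Equal library sums moved the median of all genes against WT in Nat1-/- from 0.03 to -0.08 in RPF and from 0.02 to -0.10 in RNA, and the share of calls that were higher from 47.4% to 36.2% and from 46.1% to 34.2%. For RNA of Nat1+/- against WT that share went from 46.0% to 28.1%. The cause was not tested. The lowest member level was 203 normalised RPF reads (Amd1 in C3).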
